A study of Mus musculus with 4 samples.

Results

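The genes described are 10 regulators and classical targets of the let-7 microRNAs: Lin28a, Lin28b, Hmga1, Hmga2, Igf2bp1, Igf2bp2, Igf2bp3, Trim71, Myc and Mycn. They were chosen by name, and all 10 were found among the 13815 rows of the mRNA table. Polyadenylated RNA of mouse embryonic stem cells without Dgcr8 (Dgcr8-/-), without Dicer (Dicer-/-) and of the V6.5 wild type (WT) was sequenced, together with small RNA of the WT. V6.5 is given as the strain of all 4 samples, and all cells were kept in serum with leukaemia inhibitory factor. The alleles, and whether each mutant line is a single clone, are not described in the labels. Each group has 1 library, so there is no spread between replicates, neither a test nor a p-value is given; every ratio compares the named libraries, and its 95% interval covers counting error only.

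LIN28A and LIN28B are RNA-binding proteins that hold back let-7. LIN28A binds the loop of the let-7 precursor and recruits uridylyl transferases, whose tail marks the precursor for decay. It is a well known protein of pluripotent cells. Mature let-7 pairs through its seed, the stretch from base 2 to base 8, with sites in target mRNAs and lowers their output. Its classical targets include the LIN28 mRNAs themselves, so the proteins and the microRNAs act against each other. DGCR8 works with Drosha in the nucleus to release precursor hairpins, Dicer cuts those hairpins into mature microRNAs, and let-7 needs both steps.

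The let-7 family shares its seed, and the seed is shown in capitals because it defines which sites the family can pair with. The sequences are the RefSeq mature forms of the build GRCm38.p6, written 5′ to 3′, for the 4 most abundant members and for let-7e, miR-98 and let-7d.
let-7f-5p: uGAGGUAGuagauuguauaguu
let-7g-5p: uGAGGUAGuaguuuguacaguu
let-7c-5p: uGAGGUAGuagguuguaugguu
let-7i-5p: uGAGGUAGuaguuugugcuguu
let-7e-5p: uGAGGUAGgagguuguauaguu
miR-98-5p: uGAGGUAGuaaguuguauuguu
let-7d-5p: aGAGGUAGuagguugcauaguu
All 9 of the 5p forms listed in the WT small RNA table have the seed GAGGUAG. The 6 listed 3p forms come from the other arm of the hairpin and have other seeds.

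Mature let-7 was scarce in WT cells. The 15 listed let-7 and miR-98 forms had 870 of 2594949 reads, 0.0335% (exact Clopper-Pearson 95% interval 0.0313 to 0.0358%), and the 5p forms made up 851 of these. The most abundant was let-7f-5p with 298 reads, at rank 157 of 707 listed microRNAs, followed by let-7g-5p with 198, let-7c-5p with 147 and let-7i-5p with 113. Then came let-7a-5p with 30 reads, let-7e-5p and miR-98-5p with 26 each, let-7d-5p with 8 and let-7b-5p with 5. The let-7f interval (0.0102 to 0.0129%) did not overlap that of let-7g (0.00660 to 0.00877%), whereas the intervals of let-7a, let-7e and miR-98 did overlap. let-7a, let-7c and let-7f have more than 1 hairpin each, so their reads cannot be given to a locus. No small RNA library of either mutant was analysed here, so the loss of let-7 in those cells was not measured.

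**Figure D1:**
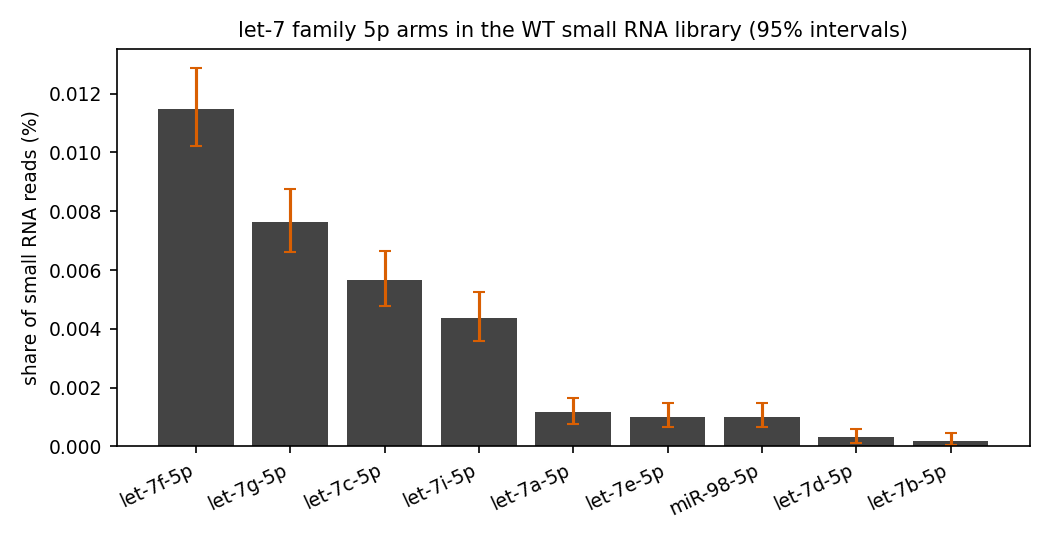
Share of all reads of the WT small RNA library (in percent, linear axis from 0) for the 9 listed 5p forms of let-7 and miR-98; bars are the shares in 1 library and orange lines exact 95% intervals. let-7f-5p, let-7g-5p, let-7c-5p and let-7i-5p stand above the other forms, and let-7f-5p is at 0.0115%.

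Other seed families with reported sites in these mRNAs were read in the same library. The seed CCCUGAG of miR-125, a reported regulator of Lin28a and Lin28b, had 960 reads (0.0370%), 709 of them from miR-125b-5p. The seed CUUUGGU of miR-9, also reported to act on LIN28, had 783 reads (0.0302%). The seed GGCAGUG of miR-34, reported to act on Myc and Mycn, had 2111 reads (0.0814%), with 2039 from miR-34a-5p. The seed GUAAACA of miR-30, also reported for Lin28a, had 9997 reads (0.385%), from miR-30a-5p, miR-30e-5p and miR-30c-5p. For scale, the seed AAGUGCU, which miR-291a-3p, miR-294-3p and miR-295-3p of the miR-290 cluster share, had 667584 reads (25.7%). Among 447 seeds with a reference sequence, GAGGUAG stood at rank 58 by reads. Only 546 of the 707 listed microRNAs, with 87.9% of reads, had a reference sequence. The others have no seed here, so the totals of these other families can be too low and the rank can differ. Forms of these other seed families are shown so that their seeds can be set beside that of let-7, with the seed in capitals.
miR-125b-5p: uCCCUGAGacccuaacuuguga
miR-9-5p: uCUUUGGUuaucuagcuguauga
miR-34a-5p: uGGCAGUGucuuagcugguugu
miR-30a-5p: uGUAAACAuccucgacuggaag
miR-294-3p: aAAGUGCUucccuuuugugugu

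The letters GGAG in the precursor loop are the reported contact of the LIN28 zinc knuckles. Of 12 let-7 and miR-98 hairpins in the RefSeq table, 9 hold GGAG somewhere, beside 44.5% of all 1005 mouse hairpins there. Where both mature arms are given, GGAG lies between the arms in 8 of 11 let-7 family hairpins and in 52 of 643 hairpins of the whole table (8.09%). The stretch between the arms was also longer in the family, with a median of 32 bases against 16 in the whole table, which leaves more room for any 4 letters. The stretches between the arms of 4 hairpins that hold the motif (in capitals) and of 2 that do not are shown, since they are what LIN28 meets; the coordinates are those of the whole hairpin in GRCm38.p6.
let-7f-1 (chr13:48537829-48537917, minus strand): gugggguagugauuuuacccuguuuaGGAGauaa
let-7g (chr9:106178840-106178927, plus strand): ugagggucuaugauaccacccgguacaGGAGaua
let-7i (chr10:122985640-122985724, minus strand): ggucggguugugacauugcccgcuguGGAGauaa
let-7c-1 (chr16:77599657-77599750, plus strand): uagaguuacacccugGGAGuuaa
let-7b (chr15:85707319-85707403, plus strand): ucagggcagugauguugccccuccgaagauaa
let-7c-2 (chr15:85706603-85706697, plus strand): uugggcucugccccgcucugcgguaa
In the 4 loops with the motif it sits close to the 3′ arm. No match says only that these letters are not in this stretch.

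The libraries hold 11123498 counts for Dgcr8-/- cells, 12309100 for Dicer-/- cells and 9931625 for WT, and levels are given as CPM, counts scaled to the same total in each library. Each targeted gene was reduced in its own mutant, with Dgcr8 at 20.9 CPM in Dgcr8-/- cells against 52.7 CPM in WT, and Dicer1 at 20.1 CPM in Dicer-/- cells against 79.9 CPM in WT. All 10 embryonic stem cell markers had counts in every library, and together they made up 8007 CPM in Dgcr8-/- cells, 8504 CPM in Dicer-/- cells and 11919 CPM in WT. The largest part of each sum is Dppa5a, at 2715 and 4222 CPM in Dgcr8-/- and Dicer-/- cells against 5564 CPM in WT. The median log2 ratio of CPM + 1 to WT of the 10 markers was -0.06 in Dgcr8-/- cells and -0.24 in Dicer-/- cells. Of 9 feeder and stromal markers, 4 were measured, none at 0, with sums of 116 and 85.3 CPM in Dgcr8-/- and Dicer-/- cells and 96.3 CPM in WT. Most of each sum is Fbln1, with 1170 and 1019 counts in those mutants against 558 in WT. Of the 4, 2 were at least 2-fold lower in Dgcr8-/- cells (median log2 ratio of CPM + 1 to WT -1.57) and 3 in Dicer-/- cells (median -2.93). Col1a1 had 6 and 5 counts in Dgcr8-/- and Dicer-/- cells against 97 in WT, Thy1 23 and 16 against 175 in WT, and Pdgfrb 94 and 10 against 126 in WT. Of 12 markers of differentiated lineages, 7 were measured, with sums of 233 and 196 CPM in those mutants and 148 CPM in WT. Most of each sum is Tubb3, at 167 and 129 CPM in those mutants and 126 CPM in WT, with log2 ratios of 0.40 and 0.03. Gata4, Nes, Sox1 and Pax6 were at least 2-fold higher in both mutants than in WT. Gata6 was lower, with 3 and 0 counts in Dgcr8-/- and Dicer-/- cells against 11 in WT. Hand1 had 7 and 10 counts against 2 in WT and was not tested. Of the stem cell markers, Pou5f1, Sox2, Nanog, Esrrb and Utf1 were under 2-fold in both mutants. Their log2 ratios in Dgcr8-/- and Dicer-/- cells were -0.22 and -0.43 for Pou5f1, and 0.45 and 0.48 for Sox2. Nanog was at 0.51 and 0.04, Esrrb at 0.32 and -0.09 and Utf1 at 0.09 and -0.06. Fgf4 was at least 2-fold higher in both mutants, and Klf4 and Tdgf1 at least 2-fold lower in both. Zfp42 was at least 2-fold lower in Dicer-/- cells only, with 4294 and 1171 counts in Dgcr8-/- and Dicer-/- cells against 4844 in WT. Dppa5a was at least 2-fold lower in Dgcr8-/- cells only, with 30196 and 51968 counts in those mutants against 55257 in WT. The part of these differences in the results below was not tested.

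The LIN28 genes stood apart from WT in opposite directions. Lin28a (NM_145833, chromosome 4) was lower in both mutants, with 30.0 CPM (334 counts) in Dgcr8-/- cells and 44.8 CPM (551 counts) in Dicer-/- cells, against 151 CPM (1503 counts) in WT. That is 5.04-fold lower in Dgcr8-/- cells (95% interval 4.47 to 5.69) and 3.38-fold lower in Dicer-/- cells (3.06 to 3.73). Among all genes tested it stood at rank 104 from the lowest of 13223 in Dgcr8-/- cells and at rank 381 of 13403 in Dicer-/- cells. In bulk RNA, fewer cells with a transcript and less of it per cell cannot be told apart. Both comparisons use the same WT library.

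Lin28b (NM_001031772, chromosome 10), the paralogue that also holds back let-7, was higher in both mutants. It had 41.3 CPM (459 counts) in Dgcr8-/- cells and 57.7 CPM (710 counts) in Dicer-/- cells, against 11.5 CPM (114 counts) in WT. The ratios were 3.59 (2.92 to 4.45) for Dgcr8-/- cells and 5.03 (4.12 to 6.18) for Dicer-/- cells. WT was the highest of the 3 libraries for Lin28a and the lowest for Lin28b, and Dicer-/- cells were above Dgcr8-/- cells for both genes. Levels of the paralogues are not set against each other, because transcript lengths were not used here.

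**Figure D2:**
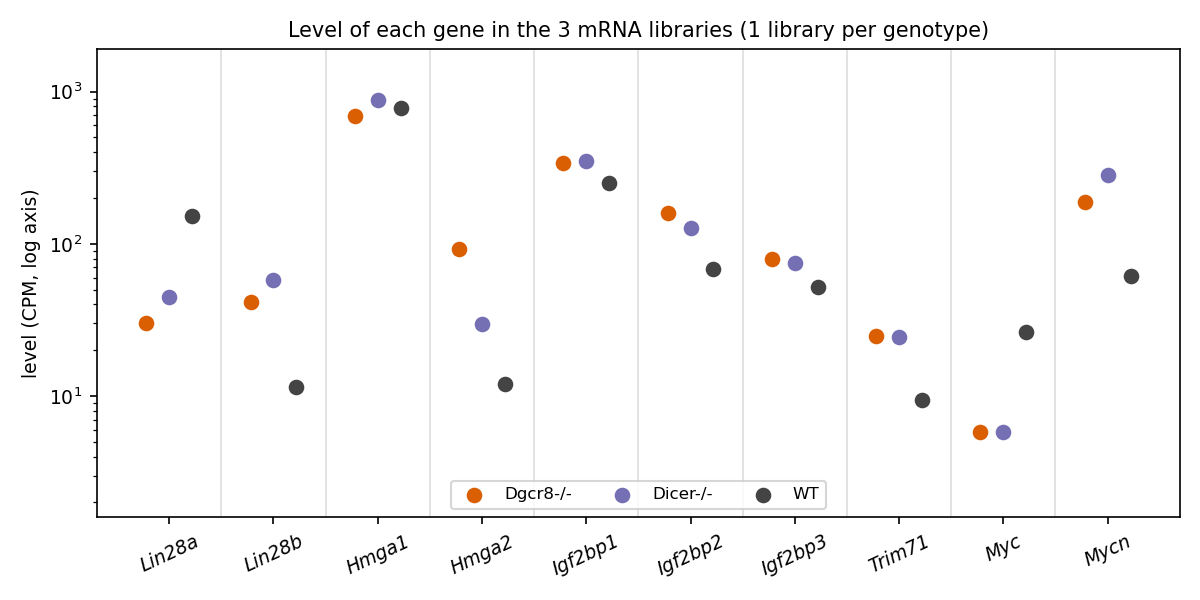
Level of each of the 10 genes in CPM (log axis) in Dgcr8-/- cells, Dicer-/- cells and WT; each point is 1 library and there are no error bars because no group has a replicate. Lin28a and Myc are highest in WT, Lin28b, Hmga2, Trim71 and Mycn are lowest in WT, and Hmga1 is within a narrow range. Heights are comparable within a gene and not between genes, since lengths differ.

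The HMGA genes encode small proteins that bind AT-rich DNA and shape chromatin, and Hmga2 is the textbook let-7 target. Hmga2 (NM_010441, chromosome 10) had 92.1 CPM (1024 counts) in Dgcr8-/- cells and 29.8 CPM (367 counts) in Dicer-/- cells, against 12.1 CPM (120 counts) in WT. It was 7.62-fold higher in Dgcr8-/- cells (6.30 to 9.28), the largest ratio of the 10 genes in either mutant, at rank 89 from the highest of 13223 genes. In Dicer-/- cells it was 2.47-fold higher (2.003 to 3.06), at rank 1527 of 13403. A processed copy, Hmga2-ps1, had 34, 3 and 2 counts in Dgcr8-/- cells, Dicer-/- cells and WT. Whether reads of Hmga2 fall on that copy was not tested.

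Hmga1 (NM_001166544, chromosome 17) differed little. It had 687 CPM (7645 counts) in Dgcr8-/- cells, 877 CPM (10796 counts) in Dicer-/- cells and 780.2 CPM (7749 counts) in WT. The ratios to WT were 0.881 (0.853 to 0.909) in Dgcr8-/- cells and 1.12 (1.09 to 1.16) in Dicer-/- cells, on opposite sides of 1. How reads that match more than 1 place were counted is not described, and the values of Hmga1 are uncertain for that reason.

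The IGF2BP genes encode RNA-binding proteins of fetal and cancer cells that bind and stabilise mRNAs such as Myc and Igf2. Igf2bp2 (NM_183029, chromosome 16) had the largest ratios of the family, with 159 CPM (1766 counts) in Dgcr8-/- cells and 127 CPM (1565 counts) in Dicer-/- cells, against 68.9 CPM (684 counts) in WT. It was 2.31-fold higher in Dgcr8-/- cells (2.11 to 2.52) and 1.85-fold higher in Dicer-/- cells (1.69 to 2.02).

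Igf2bp1 (NM_009951, chromosome 11) had 342 CPM (3808 counts) in Dgcr8-/- cells and 351 CPM (4319 counts) in Dicer-/- cells, against 252 CPM (2503 counts) in WT. Its ratios were 1.36 (1.29 to 1.43) and 1.39 (1.33 to 1.46) for Dgcr8-/- and Dicer-/- cells. Igf2bp3 (NM_023670, chromosome 6) had 79.0 CPM (879 counts) in Dgcr8-/- cells and 74.6 CPM (918 counts) in Dicer-/- cells, against 52.1 CPM (517 counts) in WT. Its ratios were 1.52 (1.36 to 1.70) and 1.43 (1.28 to 1.599). All 3 family members were thus highest in a mutant and lowest in WT, and Igf2bp2 in Dgcr8-/- cells was the only value of the family at 2-fold or more.

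Trim71 (NM_001042503, chromosome 9) encodes a ubiquitin ligase and RNA-binding protein, the mammalian counterpart of the worm gene lin-41, through which let-7 acts in the worm. It had 24.99 CPM (278 counts) in Dgcr8-/- cells and 24.6 CPM (303 counts) in Dicer-/- cells, against 9.46 CPM (94 counts) in WT. It was 2.64-fold higher in Dgcr8-/- cells (2.08 to 3.37) and 2.60-fold higher in Dicer-/- cells (2.06 to 3.31).

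The MYC genes stood apart from WT in opposite directions, as the LIN28 genes did. Myc (NM_001177354, chromosome 15), a transcription factor of growth and self-renewal, had 5.84 CPM (65 counts) in Dgcr8-/- cells and 5.85 CPM (72 counts) in Dicer-/- cells, against 26.2 CPM (260 counts) in WT. It was 4.48-fold lower in each, with intervals of 3.40 to 5.97 in Dgcr8-/- cells and 3.44 to 5.89 in Dicer-/- cells. It stood at rank 163 from the lowest of 13223 genes in Dgcr8-/- cells and at rank 237 of 13403 in Dicer-/- cells.

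Mycn (NM_008709, chromosome 12), its paralogue in embryonic and neural progenitor cells, had 189 CPM (2097 counts) in Dgcr8-/- cells and 282 CPM (3470 counts) in Dicer-/- cells, against 61.7 CPM (613 counts) in WT. It was 3.05-fold higher in Dgcr8-/- cells (2.79 to 3.35) and 4.57-fold higher in Dicer-/- cells (4.19 to 4.99). Of the 10 genes, Myc and Lin28a were those called below WT in these comparisons. Both are also reported let-7 targets.

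For counts of genes, a gene was called at a 2-fold difference on the log2(CPM + 1) scale where the pair had at least 1 library at 1 CPM. In Dgcr8-/- cells against WT, 5 of the 10 genes were higher (Lin28b, Hmga2, Igf2bp2, Trim71 and Mycn), beside 14.3% of all 13223 genes, and 2 were lower (Lin28a and Myc), beside 8.02%. In Dicer-/- cells against WT, 4 were higher (Lin28b, Hmga2, Trim71 and Mycn), beside 16.0% of 13403 genes, and 2 were lower (Lin28a and Myc), beside 9.70%. The median log2 ratio of the 10 genes was 0.89 in Dgcr8-/- cells, where that of all genes was 0.11, and 0.69 in Dicer-/- cells, where that of all genes was 0.10. These counts and medians describe genes chosen by name and are not a test.

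The median of all genes moved by -0.13 under median-ratio scaling and by -0.11 under TMM scaling in Dgcr8-/- cells, and by -0.11 and -0.10 in Dicer-/- cells. In Dgcr8-/- cells, 64.1% of all calls were on the higher side, and 53.6% under median-ratio scaling. The same members were called on the same sides under both scalings, and Hmga1 kept its signs, at -0.32 in Dgcr8-/- cells and 0.06 in Dicer-/- cells under median-ratio scaling. Of the chromosomes that carry the 10 genes, those of Lin28b and Hmga2 (10), Igf2bp3 (6) and Mycn (12) had median log2 ratios of 0.25 to 0.35 in the mutants over WT. The chromosomes of the other genes had medians of -0.11 to 0.03. The part of these shifts in the members' ratios was not tested.

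**Figure D3:**
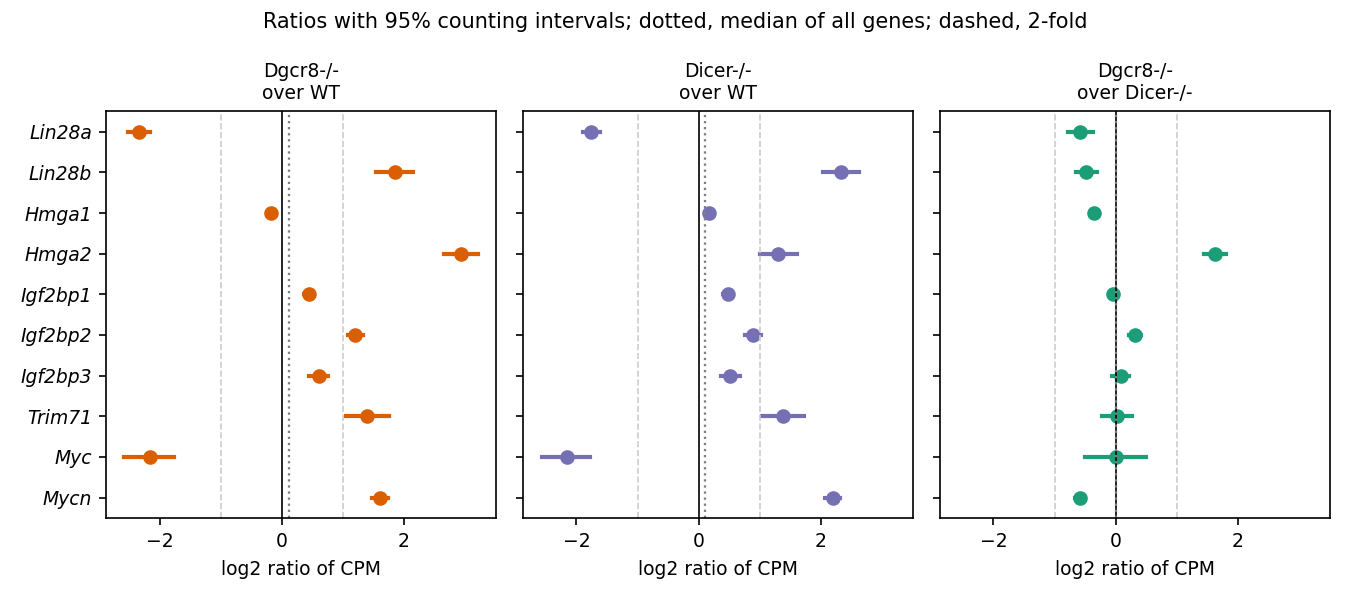
Log2 ratio of CPM for each of the 10 genes in the 3 pairs of libraries, as points with exact 95% counting intervals; the dotted line is the median of all genes tested (on log2(CPM + 1)) and dashed lines mark 2-fold. Lin28a and Myc lie left of the lower 2-fold line against WT in both mutants, and Hmga2 is the only gene past 2-fold between the mutants.

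Setting the mutants side by side leaves the WT library out. Hmga2 was 3.09-fold higher in Dgcr8-/- cells than in Dicer-/- cells (2.74 to 3.49), at rank 137 from the highest of 12986 genes. It was the only one of the 10 genes called higher, beside 4.15% of all genes, and 0 were called lower, beside 5.05%. Lin28a was 1.49-fold lower in Dgcr8-/- cells (1.30 to 1.71), Lin28b 1.40-fold lower (1.24 to 1.58) and Mycn 1.495-fold lower (1.42 to 1.58). Igf2bp2 was 1.25-fold higher (1.17 to 1.34). Hmga1 was 1.28-fold lower (1.24 to 1.31). The ratio of Myc was 0.999, with an interval of 0.703 to 1.42, that of Trim71 was 1.02 (0.860 to 1.20), that of Igf2bp1 was 0.976 (0.934 to 1.02) and that of Igf2bp3 was 1.06 (0.965 to 1.16). For those 4 genes the interval holds 1, which does not show that the levels were alike. The median log2 ratio of the 10 genes was -0.02, beside 0.00 for all genes.

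Lists of related genes are described next by their counts at 2-fold and their medians, to be read beside the shares and medians of all genes given above. The factors that work with LIN28 or process let-7 were mostly under 2-fold. Of 14 listed, 13 were tested. In Dgcr8-/- cells 0 were higher and 0 lower, with a median log2 ratio of 0.01, and in Dicer-/- cells 1 was higher and 1 lower, with a median of 0.22. Zcchc11 and Zcchc6, which encode the uridylyl transferases TUT4 and TUT7, were at -0.12 and 0.00 in Dgcr8-/- cells and at -0.17 and -0.25 in Dicer-/- cells. Dis3l2, the exonuclease that degrades the tailed precursor, was at -0.06 in Dgcr8-/- cells and at -1.03 in Dicer-/- cells, with 532 and 294 counts there against 495 in WT. Msi1, an RNA-binding protein of neural progenitors reported to work with LIN28, was at 0.93 and 1.24 in Dgcr8-/- and Dicer-/- cells. Prkra, a Dicer partner, was at 0.03 and 0.64, and Tarbp2, another, at -0.49 and -0.55.

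Of 26 other reported let-7 targets, 24 were tested in Dgcr8-/- cells and 25 in Dicer-/- cells. In Dgcr8-/- cells 8 were higher and 1 lower, with a median log2 ratio of 0.71, and in Dicer-/- cells 12 were higher and 2 lower, with a median of 0.77. Ccnd2, a G1 cyclin, had 649 counts in Dgcr8-/- cells and 1314 in Dicer-/- cells against 28 in WT, and log2 ratios of 3.96 and 4.82. Prdm1, the repressor BLIMP1, had 237 and 596 counts in those mutants against 4 in WT, with log2 ratios of 3.99 and 5.14. Thbs1, a matrix glycoprotein, had 21 and 276 counts against 2 in WT. Dusp9, a MAP kinase phosphatase, was lower, with 654 and 879 counts in Dgcr8-/- and Dicer-/- cells against 5134 in WT, at -3.11 and -2.84. The other gene lower in Dicer-/- cells was Dicer1, the gene targeted there. Some of these genes also carry reported sites for other microRNA families, so the list is not specific to let-7.

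Among the partners and rivals of MYC, 11 were tested. In Dgcr8-/- cells 1 was higher and 0 lower (median 0.41), and in Dicer-/- cells 2 were higher and 0 lower (median 0.44). Mxd3, a MAX partner that opposes MYC, was at 1.44 and 1.15 in Dgcr8-/- and Dicer-/- cells, and Mnt, another, at 0.93 and 1.003. Mxd4 was at 0.76 and 0.98, from 21 and 29 counts against 7 in WT. Mycl, the remaining MYC paralogue, was at -0.91 and -0.40. Max itself was at 0.41 and 0.22.

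Reported MYC-activated genes were mostly under 2-fold. All 23 were tested, 1 was higher and 0 lower in Dgcr8-/- cells (median -0.16), and 1 was higher and 1 lower in Dicer-/- cells (median -0.20). The gene higher in both was Mir17hg, the primary transcript of the miR-17-92 cluster, with 472 and 509 counts in Dgcr8-/- and Dicer-/- cells against 17 in WT. Mir17hg is also a Microprocessor substrate. Its level was 42.4 CPM in Dgcr8-/- cells and 41.4 CPM in Dicer-/- cells, and the cause of its difference from WT was not tested. Ldha, a glycolytic enzyme, was at -0.57 and -1.32, the chaperonin gene Hspd1 at -0.81 and -0.70 and the G1 kinase gene Cdk4 at 0.70 and 0.74. Without Mir17hg the tested members of the list lay between -1.32 and 0.74 in these comparisons.

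Genes reported downstream of TRIM71 or HMGA2 were on the higher side. Of 6 tested, 3 were higher in Dgcr8-/- cells (median 1.42) and 4 in Dicer-/- cells (median 1.33), and 0 were lower in either. Cdkn2a, a cell cycle inhibitor that HMGA2 is reported to hold down, had 197 and 275 counts in Dgcr8-/- and Dicer-/- cells against 22 in WT. Egr1, an immediate early factor and reported TRIM71 target, had 162 and 179 counts against 18 in WT. Rbl2, a pocket protein of the cell cycle, was at 1.99 and 1.40, and Mbnl1, a splicing regulator, at 0.46 and 1.26. Cdkn1a, another reported TRIM71 target, was at 0.52 and 0.79. The list was not sorted by the reported direction of regulation, and the part of Trim71 or Hmga2 in these values was not tested.

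Of 5 reported IGF2BP-bound transcripts, 3 were tested, with 2 higher in Dgcr8-/- cells and 1 in Dicer-/- cells and 0 lower in either, and medians of 1.22 and 0.53. Igf2, a fetal growth factor, had 238 counts in Dgcr8-/- cells and 134 in Dicer-/- cells against 72 in WT. Actb was at 1.22 and 1.70, and H19 had 10, 10 and 2 counts in Dgcr8-/- cells, Dicer-/- cells and WT and was not tested. Of 5 transcripts that host let-7 genes, 3 were tested, with 0 higher in either mutant, 0 lower in Dgcr8-/- cells and 1 lower in Dicer-/- cells, and medians of -0.07 and -0.16. Huwe1 (let-7f-2 and miR-98) was at -0.07 and -0.16 and Wdr82 (let-7g) at 0.49 and 0.38. The noncoding 2610203C20Rik, host of let-7a-2 and miR-125b-1, had 29 counts in Dgcr8-/- cells and 7 in Dicer-/- cells against 56 in WT, and was the 1 called lower.

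Between the mutants, 25 of the other reported let-7 targets were tested. In Dgcr8-/- cells 1 was higher and 4 were lower, with a median of -0.17. The 1 higher was Dicer1 at 2.61, the gene targeted in Dicer-/- cells. Among those lower were Thbs1 at -3.02, the microtubule-severing gene Fign at -1.55 and Prdm1 at -1.15. Of the LIN28 cofactors, the MYC network, the MYC-activated genes, the IGF2BP-bound transcripts and the reported TRIM71 and HMGA2 targets, 0 were higher and 0 lower between the mutants. Of the 3 let-7 host transcripts tested, 1 was higher in Dgcr8-/- cells, 2610203C20Rik at 1.20, and 0 were lower.

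**Figure D4:**
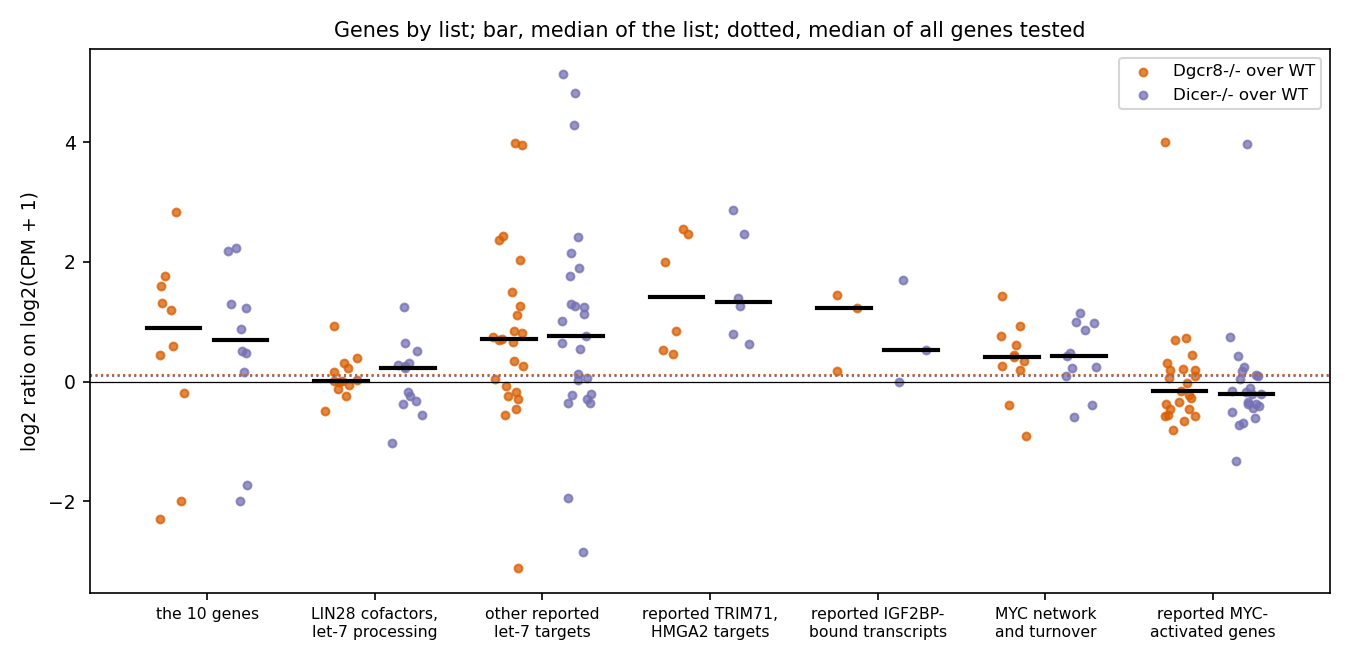
Log2 ratio on log2(CPM + 1) of each tested gene for the 10 genes and for 6 lists around them, in Dgcr8-/- cells over WT (orange) and Dicer-/- cells over WT (purple); points are genes, black bars list medians and dotted lines the median of all genes. Other reported let-7 targets have medians of 0.71 and 0.77 with a wide range, whereas reported MYC-activated genes have medians of -0.16 and -0.20, with Mir17hg as the highest point.

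Genes with patterns most like 4 of the members were found by the Euclidean distance over the 2 log2 ratios to WT, among 11149 genes at 5 CPM or more in 1 library. With 3 libraries this likeness is loose. The ratios are on log2(CPM + 1), so a gene with few or 0 counts in a library can lie near a member whose ratio of CPM differs. Lin28a had 15 genes within a distance of 0.25, and Aldh1l1, Tspan7 and Nkd2 were nearest, at distances of 0.10, 0.11 and 0.14. Nkd2 had only 4 and 10 counts in Dgcr8-/- and Dicer-/- cells against 56 in WT. Lin28b had 60, with Zfp74, Lfng and Rai1 nearest, and Mycn had 57, with Eif4g3, Tmem2 and Pik3cb nearest. Hmga2 had only 3, which were Nr2f2, Herc6 and Loxl4. Loxl4 had 296 counts in Dgcr8-/- cells and 87 in Dicer-/- cells against 24 in WT, while Nr2f2 had 62 and 19 and Herc6 64 and 20, both against 0 in WT.

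The E-box CACGTG, the letters that MYC and MAX bind, reads the same on both strands. In RefSeq promoter windows from 250 bases before to 50 bases after the start, it was found in the windows of Lin28b (1 match) and Igf2bp3 (2 matches). Windows were given for 8 of the 10 genes, with 2 overlapping windows for Hmga1; Igf2bp1 and Myc were not analysed here. The matches lie in 2 of these 9 windows, beside 9.91% of the windows of genes in the mRNA table. A match of letters is no evidence of binding.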

How the data were processed

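The deposited mRNA table holds raw counts per RefSeq transcript entry, 1 column per library, and the deposited small RNA table raw counts per mature microRNA. Per the labels' protocols, total RNA was extracted with Trizol, and libraries were made with stranded poly(A) and small RNA kits. The submitters' processing notes name Bowtie and mm9; the counting tool, annotation and strand setting were not given in the sources used here. Empty cells were read as 0, and every row reaches 10 counts in at least 1 library. Counts from 2 to 9 were even for 74.8%, 69.7% and 69.6% of genes in Dgcr8-/- cells, Dicer-/- cells and WT; if read mates were counted separately, the intervals are too narrow.

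CPM were computed with the column totals. Ratios of CPM have exact conditional binomial 95% intervals, and shares exact Clopper-Pearson ones. PCR reads are not independent molecules, so these cover counting error only. Calls use 2-fold on log2(CPM + 1), with a floor of 1 CPM in the higher library. Other settings were pseudocounts of 0.1 and 5, no floor and 5 CPM, 1.5-fold, median-ratio scaling, TMM by edgeR 4.0.16 (R 4.3.3), 5p arms alone and, chosen after seeing the data, leaving out Hmga1. The ratio code was tested on simulated data. Rows were matched by RefSeq entry to GRCm38.p6 genes for names and chromosomes only, 13803 of 13815, and 546 of 707 microRNAs had a RefSeq sequence. Analyses used Python 3.11.15. Named genes are the 10 members, the targeted genes, all let-7 forms, in each list up to 4 genes by size of ratio, and the 3 genes nearest in pattern to 4 members. Max, Zcchc11, Zcchc6, Cdkn1a, Fign and the markers were added after their values were seen. Members and lists were chosen with earlier results of these data known. Some planned items are not reported here.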

Additional observations from a re-analysis of the deposited data

Results flagged for a closer look

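Hmga1 was the only one of the 10 genes whose counting intervals lay on opposite sides of 1 in the mutants, with a ratio to WT of 0.881 in Dgcr8-/- cells and 1.12 in Dicer-/- cells. Each is 1 library, and the difference between the mutants was not tested against replicates. How reads with more than 1 match were counted is not described.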

How the results depend on the processing

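No paired analysis was possible because each group has 1 library, and for the same reason no library could be left out. The members called at 2-fold kept their number in each pair under other pseudocounts, scalings and floors; the 1.5-fold rule gave 6 higher in Dgcr8-/- cells and 5 in Dicer-/- cells over WT. Without Hmga1 the median log2 ratio of the members was 1.19 in Dgcr8-/- cells and 0.87 in Dicer-/- cells. Of 120 member ratios under another pseudocount or scaling, 101 stayed within their counting interval, 19 left it and 0 called ratios changed sign. Trim71 between the mutants was at 0.02, and at -0.0044 under median-ratio scaling. Counts over all genes moved more. With a pseudocount of 5 they were 1087 higher and 411 lower in Dgcr8-/- cells over WT, 1232 and 591 in Dicer-/- cells over WT, and 182 and 222 between the mutants, where a pseudocount of 0.1 gave 849 and 1004. A floor of 5 CPM left 696 lower in Dgcr8-/- cells over WT and 415 lower between the mutants. The 1.5-fold rule gave 3581 and 2345, 3759 and 2642, and 1642 and 1618. The main counts were 1891 and 1060, 2144 and 1300, and 539 and 656. Without the most abundant microRNA in the total, the let-7 share was 0.0545%. Counting depth limits Myc most, at 65 and 72 counts in the mutants.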
